A study of Mus musculus with 6 samples.

Results

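H19, Rasgrf1 and Zdbf2 are imprinted loci of the mouse with regions that are methylated on the paternal copy. The data are reduced representation bisulfite sequencing (RRBS) of adult right testes, in which DNA is cut at CCGG by the enzyme MspI and short fragments are converted with bisulfite, so that an unmethylated cytosine is read as a thymine. The methylation level of a position is its methylated reads in percent of all its reads. Where reads are summed over positions, a read is counted once for each position it covers. The members are the cytosine positions with at least 5 reads in all 6 libraries inside 3 windows of the mouse build GRCm38, chr7:142570000-142590000 for H19, chr9:89860000-89915000 for Rasgrf1 and chr1:63250000-63280000 for Zdbf2. There were 92 such positions, 4 at H19, 33 at Rasgrf1 and 55 at Zdbf2, of 1122420 positions with the same coverage on chromosomes 1 to 19, X and Y.

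The 3 hemicastrated mice, of the KM strain, had lost the left testis before puberty, and they were set against 3 sham-operated KM mice. Both groups were kept to body maturation, no genetic change was stated for either, and no ages in days were named. Each library came from the right testis of 1 mouse. The material was whole testis, so germ cells and somatic cells were measured together, and a change in cell proportions and a change within cells cannot be told apart. The libraries held 64437467 to 78540618 cytosine calls. On mitochondrial DNA, which is known to be almost free of methylation, 0.478% to 0.617% of calls were methylated, which is the background for the low levels given here. As a check of the tissue, windows within 1 kb of the listed start were read for germ cell genes. Those of Dazl, Sycp3 and Mael, which are methylated in many somatic tissues, averaged 7.62% to 20.8% over the 6 mice. Ddx4 had no position with enough reads. The windows of the Sertoli cell genes Sox9 and Amh averaged 0.518% and 0.448%, and those of the Leydig cell genes Cyp17a1 and Star 92.0% and 97.1%. For these somatic genes no start was listed. Their windows lay at the gene boundary with more listed positions, which may be the gene's end, so they need not be promoter levels. The blood and endothelial genes Ptprc and Cdh5 had no position with enough reads.

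Genomic imprinting makes a gene's activity depend on the parent that passed it on. Most imprinting control regions receive their methylation in the egg, and only a few receive it in prospermatogonia and carry it into sperm. The H19 control region binds the insulator protein CTCF when unmethylated and decides whether shared enhancers act on the non-coding RNA gene H19 or on the growth factor gene Igf2. Rasgrf1 encodes a Ras guanine nucleotide exchange factor, and its control region with adjoining repeats lies far upstream of the gene. Zdbf2 encodes a zinc finger protein with a role in postnatal growth. Its paternally methylated region lies upstream of its shorter transcript start, and longer transcripts begin far upstream, inside Gpr1, at a start that is methylated in the egg. In sperm the H19 and Rasgrf1 control regions are known to be methylated, while somatic cells carry that methylation on the paternal copy only.

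The sequence just before 2 of the gene starts is shown for its CpGs. Both stretches are the 250 bases before the RefSeq start on the plus strand of GRCm38.p6, with CpGs that were read in at least 1 library in capitals.
Zdbf2, chr1:63273019-63273268: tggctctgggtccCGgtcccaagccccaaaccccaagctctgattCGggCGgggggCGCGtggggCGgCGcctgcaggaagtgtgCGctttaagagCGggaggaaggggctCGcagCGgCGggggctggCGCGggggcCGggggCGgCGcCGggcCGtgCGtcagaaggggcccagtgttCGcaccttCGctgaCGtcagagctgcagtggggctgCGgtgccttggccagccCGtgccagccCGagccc
Rasgrf1, chr9:89909525-89909774: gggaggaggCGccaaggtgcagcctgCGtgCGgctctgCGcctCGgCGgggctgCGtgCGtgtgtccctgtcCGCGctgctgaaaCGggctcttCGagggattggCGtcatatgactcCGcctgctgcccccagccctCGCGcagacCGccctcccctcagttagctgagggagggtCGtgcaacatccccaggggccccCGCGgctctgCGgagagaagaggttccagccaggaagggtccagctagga
The Zdbf2 stretch holds 26 CpGs and 3 MspI sites (CCGG, the same on both strands), and 52.8% of the 300-base RefSeq promoter windows hold at least 1 such site. Of its 8602 cytosine calls over all libraries, 41 were methylated (0.477%), and 21 of its CpGs reached the coverage minimum. The Rasgrf1 stretch holds 21 CpGs and no CCGG. None of its CpGs reached the coverage minimum, so the Rasgrf1 start members lie outside it, on both sides. It drew 134 cytosine calls over all libraries, and 0 of them were methylated, which allows a level of up to 2.24% if calls are taken as independent. Its CpG count was higher than that of 83.7% of RefSeq promoter stretches, and the count of the Zdbf2 stretch was higher than that of 90.4%.

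The H19 control region, chr7:142580000-142582500, was highly methylated in testis. It lies upstream of the H19 gene (gene ID 14955, chr7:142575530-142578146, long non-coding RNA), whose start is at its higher coordinate. The 2 members there, chr7:142581230 and chr7:142581231, are the cytosines on both strands of 1 intergenic CpG 3084 bp before the start. At the first, the level was 63.6%, 100% and 90.0% in hemicastrated mice 1 to 3, against 95.2%, 93.9% and 100% in sham mice 1 to 3. At the second it was 83.3%, 84.6% and 92.9% in hemicastrated mice, against 86.2%, 96.6% and 92.9% in sham mice. The lowest value was that of hemicastrated mouse 1, where 7 of 11 reads were methylated, and the groups overlapped at both positions. Averaged over both positions, the level was 85.7% ± 10.6 in hemicastrated mice and 94.1% ± 3.01 in sham mice (SD, n = 3 each), on 24 to 62 reads per library. The difference of -8.39 points (SE 6.37) was not unusual among regroupings of the mice by an exact two-sided permutation test (p = 0.3). After Benjamini-Hochberg adjustment over 5 regions this p was 0.667, and 3 mice against 3 cannot give a p below 0.1. Without hemicastrated mouse 1 the difference was -2.26 points. With all 83 positions listed in any library in the control region, on 42 to 110 reads per library, the level was 89.5% ± 5.63 in hemicastrated mice and 90.3% ± 2.70 in sham mice, and the difference was -0.752 points (exact permutation p = 1).

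On the gene side of the control region, chr7:142575817 and chr7:142575863 lie inside H19, 2329 and 2283 bp downstream of its start. Their mean level was 90.2%, 92.4% and 88.6% in hemicastrated mice, against 83.7%, 94.7% and 93.6% in sham mice. The groups overlapped, and the difference of -0.266 points (SE 3.66) had an exact permutation p of 1. The control region did not stand above these gene positions. Within the 6 mice the difference, control region minus gene side, averaged -0.597 points with an SD of 8.28 points, and the control region was higher in 4 of 6 mice (exact sign-flip permutation test, p = 0.969, adjusted over 7 within-mouse comparisons 0.969). With all listed positions the control region was 9.84 points higher than the whole gene side (exact sign-flip p = 0.09375). The far side of the control region, chr7:142582501-142590000, had no position with enough reads. All its listed positions together had 7 to 21 reads per library and a pooled level of 88.2%. The level was 90.0%, 69.2% and 90.0% in hemicastrated mice, against 93.3%, 100% and 90.5% in sham mice. The groups did not overlap, and the difference of -11.5 points (SE 7.48) had an exact permutation p of 0.1, the smallest possible, on too few reads to enter the adjustment. For scale, the groups did not overlap in 9.52% of 500 bp tiles with listed positions summed and at least 10 reads per library. The far side did not reach that minimum in every library, so the share is only a rough guide to it.

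The unmethylated part of the H19 window was a short stretch at the gene start. In what follows on this profile, all listed positions of a 500 bp tile were summed over the 6 libraries, with Wilson 95% intervals that cover counting error only, and tiles with at least 30 reads were counted. Of 10 such tiles at H19, 8 were above 70% and 2 were below 20%. The tile at 142578001-142578500, which contains the start, had a level of 1.68% (0.462% to 5.92%), with 2 methylated of 119 reads, and 0.952% without hemicastrated mouse 2 or 0.943% without sham mouse 2. The tile before it in genome order, 142577501-142578000, inside the gene, had 15.8% (9.27% to 25.6%) on 76 reads, with 6 of 10 reads methylated in hemicastrated mouse 1, and 9.09% without that mouse. On the upstream side the next tile, 142578501-142579000, was at 81.7% (77.6% to 85.2%) on 398 reads. The low level was thus bounded by a highly methylated neighbour on the upstream side. In the control region the tiles at 142580001, 142581001 and 142582001 were at 94.1%, 89.8% and 85.1%, on 34, 322 and 47 reads. Of the 34 reads, 33 came from hemicastrated mice. In the tile at 142582001, sham mouse 2 was at 61.1% on 18 reads and every other mouse at 100%. Within the gene the tile at 142575501 was at 91.0%, and beyond its end the tile at 142571501 was at 92.3%. Over the window of 1 kb on either side of the start, which mixes both kinds of tile, the control region was 33.1 points higher (9.42 to 49.7 points, higher in 6 of 6 mice, exact sign-flip p = 0.03125, adjusted p = 0.0365). That p is the smallest that 6 mice can give. As a mean of positions the same comparison gave 60.4 points.

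**Figure D1:**
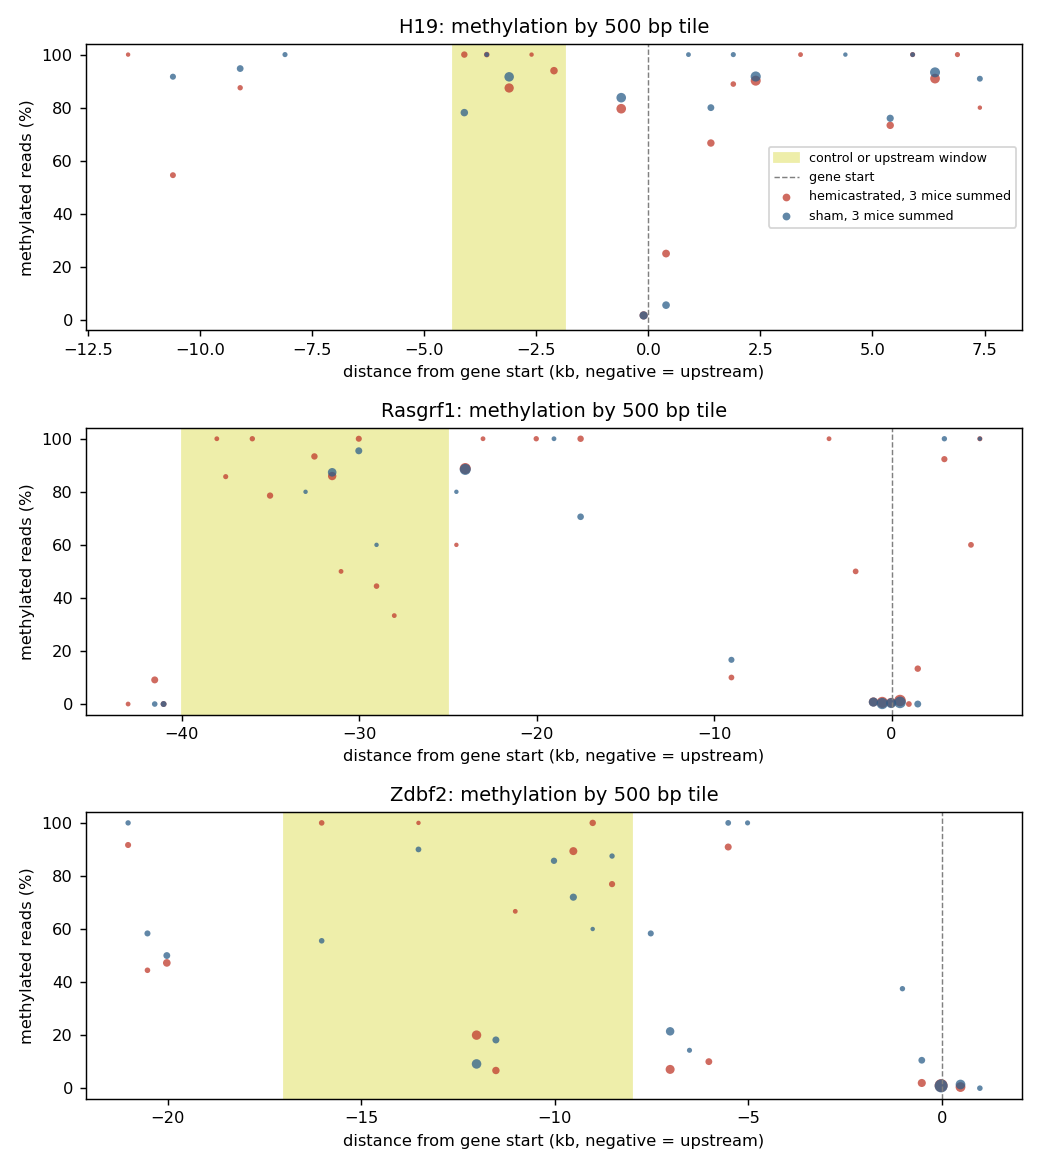
Methylated reads in percent by 500 bp tile at H19, Rasgrf1 and Zdbf2 (tiles with at least 5 reads in a group), against the distance from the gene start in kb, with hemicastrated mice in red, sham mice in blue, larger points for more reads and the control or upstream window shaded. The H19 control region tile with the most reads was at 87.4% in hemicastrated and 91.6% in sham mice, while the tiles at all 3 gene starts were near 0, and the Zdbf2 window held both low and high tiles.

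Rasgrf1 (gene ID 19417, protein-coding, chr9:89909508-90026979) was methylated at its upstream members and unmethylated at its start. The 5 upstream members, chr9:89885821 to chr9:89885991, are cytosines of 4 intergenic CpGs 23784 to 23954 bp before the start. They lie closer to the gene than the distal window of 25 to 40 kb before the start, which was chosen to hold the control region and in which no position reached the coverage minimum. The deepest of them, chr9:89885821, with 148 to 190 reads per library, was at 83.3%, 88.4% and 93.2% in hemicastrated mice, against 89.4%, 92.6% and 84.5% in sham mice. Its partner on the opposite strand, chr9:89885822, was at 97.5%, 88.7% and 85.7% in hemicastrated mice, against 90.5%, 88.1% and 78.7% in sham mice. The order of the mice differed between these strands of 1 CpG, and the groups overlapped at both. The mean over the 5 positions was 91.7%, 86.9% and 93.8% in hemicastrated mice, against 86.0%, 96.1% and 83.4% in sham mice. Sham mice held both the highest and the lowest value, and the difference of 2.30 points (SE 4.40) had an exact permutation p of 0.7, 0.875 adjusted over the 5 regions. It turned to -0.261 points without sham mouse 3.

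In the distal Rasgrf1 window, 112 thinly read positions were listed in any library, with 28 to 64 reads per library in all. Their summed level was 79.5%, 86.2% and 76.6% in hemicastrated mice, against 75.5%, 98.2% and 82.1% in sham mice. The means were 80.8% ± 4.95 in hemicastrated mice and 85.3% ± 11.7 in sham mice, and they overlapped (exact permutation p = 0.7). The libraries read different positions there, so these levels do not compare the same CpGs. The best covered tiles of the window were 89878001-89878500 and 89879501-89880000. The first was at 86.7% (80.2% to 91.3%) on 143 reads from all 6 libraries. The second was at 97.1% (85.1% to 99.5%) on 34 reads, all from hemicastrated mouse 2 and sham mouse 2. One tile upstream of the window, 89868001-89868500, was low at 6.45% (1.79% to 20.7%) on 31 reads, and at 3.85% without hemicastrated mouse 1. Its neighbour at 89868501 was also low, with 0 of 22 reads methylated, although its interval reached 14.9%. Between the upstream members and the start, the tile at 89900501 had 3 of 22 reads methylated (13.6%, 4.75% to 33.3%), from 4 libraries.

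The Rasgrf1 start was unmethylated in every mouse. The 28 members there are cytosines of CpGs from 430 bp upstream to 632 bp downstream of the start at chr9:89909775. Their means over the 6 mice lay between 0% and 4.49%. Of their 168 single-mouse values, 140 were 0. The mean level was 0.472%, 1.75% and 1.10% in hemicastrated mice, against 0.251%, 0.651% and 1.03% in sham mice. The groups overlapped, and the difference of 0.464 points (SE 0.432) had an exact permutation p of 0.4, 0.667 adjusted. It was 0.143 points without hemicastrated mouse 2, 0.267 points without sham mouse 1, 0.781 points without hemicastrated mouse 1 and 1.04 points with at least 20 reads per position. With all listed positions summed, the level was 0.682%, 1.90% and 0.788% in hemicastrated mice, against 0.267%, 0.513% and 0.609% in sham mice. Here the groups did not overlap, with an exact permutation p of 0.1, the smallest possible, and 0.55 after adjustment over 11 regions. The groups also did not overlap in 9.52% of the 500 bp tiles with listed positions summed and at least 10 reads per library. Within each mouse the upstream members exceeded the start by 82.4 to 95.5 points, with a mean of 89.7% upstream and 0.876% at the start (higher in 6 of 6 mice, exact sign-flip p = 0.03125, adjusted p = 0.0365).

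**Figure D2:**
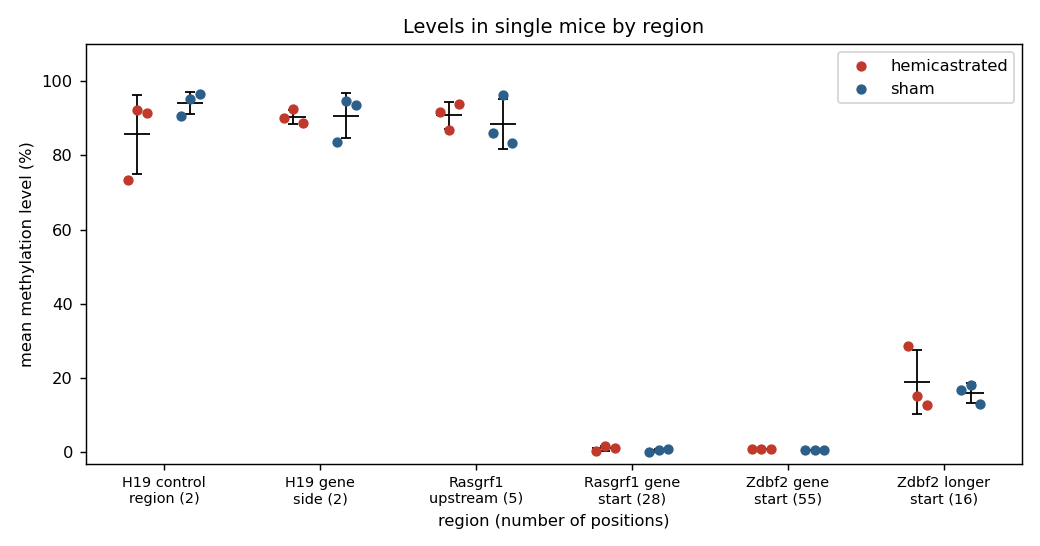
Mean methylation level in percent in each mouse by region, with the number of positions in brackets, hemicastrated mice in red on the left and sham mice in blue on the right, and black bars for the group mean ± SD (n = 3 each). The H19 and upstream Rasgrf1 regions lay between 73.5% and 96.4% and both short gene starts below 2%, while the start of the longer Zdbf2 transcripts lay between them, with hemicastrated mouse 1 above the other mice.

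At Zdbf2 (gene ID 73884, protein-coding, chr1:63200358-63314576) all 55 members lie at the start of the shorter transcript, and they were unmethylated. They go against the label of the locus as paternally methylated, and none of them lies in the upstream window. They are cytosines of CpGs from 204 bp upstream to 57 bp downstream of the start at chr1:63273269, all in 1 tile, and many share the same reads. Most of those upstream overlap the end of Gm11608, a long non-coding RNA gene at chr1:63266469-63273256. Of their 330 single-mouse values, 232 were 0, and their means over mice lay between 0% and 6.06%. Their mean level was 1.01%, 0.950% and 0.990% in hemicastrated mice, against 0.755%, 0.624% and 0.733% in sham mice, on 2702 to 3997 reads per library. The groups did not overlap on this mean of positions. Of all tiles tested, 9.55% had groups without overlap, but that share was counted on summed reads. The difference of 0.279 points (SE 0.0444) had the smallest exact permutation p that 3 against 3 can give, 0.1, and 0.5 after adjustment over the 5 regions. It depended on how positions were weighted. When reads were summed over the same positions the difference was 0.128 points, with 1.04%, 0.777% and 1.10% in hemicastrated mice and 0.950%, 0.776% and 0.805% in sham mice, and the groups overlapped (exact permutation p = 0.3). With at least 20 reads per position it was 0.0749 points (exact permutation p = 0.7). Both groups were within about 1 point of the mitochondrial background.

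The strands of the Zdbf2 start differed in their low methylation. The comparison covers 20 CpGs, up to 48 bp downstream of the start, of which both cytosines were members. A further neighbouring pair of members, 56 and 57 bp downstream, was not part of it. Its means over the 6 mice were 1.19% and 1.97%. The plus-strand mean over these CpGs was 0.295% to 0.455% in single mice, and the minus-strand mean was 1.04% to 1.83%, so every mouse had the higher value on the minus strand. The minus-strand excess came mainly from the last 4 of the 20 CpGs, 33, 38, 43 and 48 bp downstream of the start, with minus-strand means of 3.53%, 4.59%, 3.75% and 6.06% over the 6 mice. In these 4 the minus-strand mean lay between 3.13% and 6.25% in single mice, and the plus-strand mean between 0% and 0.909%. The other 16 CpGs had a minus-strand mean of 0.584%. These 4 CpGs were picked out after their values were seen, and no test was made.

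**Figure D3:**
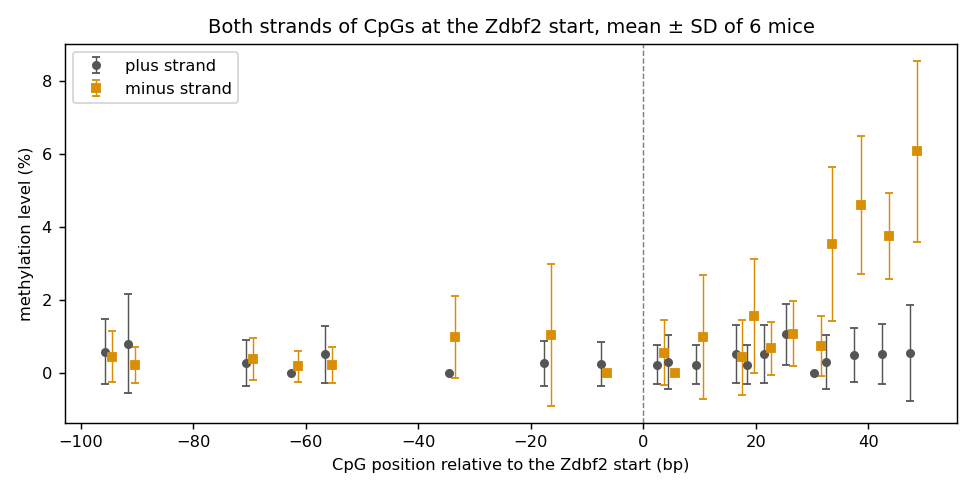
Methylation level in percent of the plus-strand cytosine (grey circles) and the minus-strand cytosine (orange squares) of 20 CpGs at the shorter Zdbf2 start, against the distance from that start in bp, as the mean ± SD of 6 mice. The last 4 of these 20 CpGs averaged 3.53% to 6.06% on the minus strand, while their plus-strand mean was 0.459%.

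The Zdbf2 upstream window, 8 to 17 kb before the shorter start (chr1:63256269-63265269), held low and high tiles side by side. No position there reached the coverage minimum, and 108 positions were listed in any library, with 69 to 118 reads per library. Their summed level was 36.4%, 53.6% and 42.4% in hemicastrated mice, against 24.1%, 29.7% and 30.6% in sham mice. All hemicastrated mice were above all sham mice, with means of 44.1% ± 8.73 in hemicastrated mice and 28.1% ± 3.51 in sham mice. The difference of 16.03 points (SE 5.43) had an exact permutation p of 0.1, the smallest possible, and 0.55 adjusted over 11 regions, against the 9.52% of tiles without overlap on this basis. As a mean of positions the difference was 7.84 points (exact permutation p = 0.3). The rest of the upstream part of the window, on the same summed basis, differed in the other direction. It had 30%, 34.8% and 32.4% in hemicastrated mice, against 20.97%, 56.6% and 67.4% in sham mice, a difference of -15.9 points within overlapping groups (exact permutation p = 0.4). The libraries read different mixtures of positions there. The adjoining tiles at 63261001 and 63261501, chosen after their values were seen, gave 66.1%, 60.9% and 63.6% of the window's reads in hemicastrated mice, against 72.3%, 71.2% and 75.3% in sham mice. Reads from this low pair were thus a smaller share in every hemicastrated mouse. The part of these shares in the window's difference was not tested. Inside the pair the level was 8.97%, 35.7% and 17.3% in hemicastrated mice, against 0%, 11.9% and 17.2% in sham mice, and the groups overlapped. In the remainder of the window it was 90.0%, 81.5% and 86.0% in hemicastrated mice, against 87.0%, 73.5% and 71.4% in sham mice, and the groups overlapped there too.

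Pooled over the 6 libraries, the low pair had 13.9% methylated reads (10.9% to 17.6%, 403 reads) and the remainder of the window 82.4% (76.4% to 87.2%, 188 reads). Nearer the gene start, the tile at 63266001 was low again at 12.6% (8.52% to 18.2%), and the tile at 63267501 was high at 93.8% (79.9% to 98.3%). The whole window was 35.2 points above the shorter start on the same basis of all listed positions (23.1 to 52.8 points, higher in 6 of 6 mice, exact sign-flip p = 0.03125, adjusted p = 0.0365). Of 9 Zdbf2 tiles with at least 30 reads, 2 were above 70% and 6 below 20%, against 4 and 6 of 10 such tiles at Rasgrf1.

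The start of the longer Zdbf2 transcripts, 72911 bp upstream of the shorter start and inside Gpr1, had an intermediate level. It lies outside the window that defines the members and was added after the data were seen. Its 16 positions with enough reads within 1 kb of chr1:63200358 averaged 28.7%, 15.3% and 12.8% in hemicastrated mice, against 16.8%, 18.1% and 13.1% in sham mice, on 965 to 1558 reads per library. Hemicastrated mouse 1 was above all others, the remaining 5 mice overlapped, and the difference of 2.93 points (SE 5.15) had an exact permutation p of 0.9. Without hemicastrated mouse 1 it was -1.95 points. Within mice the longer start was 16.6 points above the shorter one (11.8 to 27.7 points, higher in 6 of 6 mice, exact sign-flip p = 0.03125, adjusted p = 0.0365).

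None of the 4 member tiles that entered a fit across the genome, 3 of Rasgrf1 and 1 of Zdbf2, was called different between hemicastrated and sham mice, and the H19 tiles had too few positions to enter it. The edgeR quasi-likelihood test on methylated and unmethylated counts covered 82658 tiles of 500 bp with at least 3 positions, and 0 of them (0%) passed an adjusted p of 0.05, while 3539 had an unadjusted p under 0.05 (4.28%). Limma called 0 tiles and a quasi-binomial model 5, none of them a member tile. In data simulated on the 82658 tiles of this fit, 200 tiles were shifted, drawn from low and high levels but not from the extremes. The test recovered 10.4% of tiles shifted by 20 points, 41.8% of those shifted by 40 points and 97.0% of those shifted by 80 points. The member tiles at the Rasgrf1 and Zdbf2 starts lay below the levels drawn, so these rates do not apply to them. The 4 member tiles tested all had an edgeR adjusted p of 1. The Rasgrf1 upstream tile at 89885501 had 89.0%, 88.3% and 92.0% in hemicastrated mice, against 88.9%, 92.7% and 83.1% in sham mice. The Rasgrf1 tile at 89909001 had 0.355%, 0.9804% and 0.235% in hemicastrated mice, against 0%, 0.253% and 0% in sham mice. The Rasgrf1 tile at 89910001, inside the gene, had 0.5%, 2.79% and 1.61% in hemicastrated mice, against 0.518%, 0.622% and 1.29% in sham mice. The Zdbf2 tile had the summed levels given for its start. The unadjusted edgeR p-values were 0.678 for the upstream Rasgrf1 tile, 0.127 and 0.187 for the others of Rasgrf1 and 0.460 for the Zdbf2 tile. The groups overlapped in each of these 4 tiles. The upstream Rasgrf1 tile was more methylated than 64.4% of all tiles tested, whose median was 69.99%.

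Tiles with fewer positions or thinner coverage gave no member call either. With at least 1 position per tile, 4 of 122601 tiles were called (0.00326%), and the tiles of the H19 control region (86.5% in hemicastrated mice and 93.9% in sham mice, difference -7.45 points), of the H19 gene and of the single Rasgrf1 member at 89909501-89910000 each had an edgeR adjusted p of 1. With all listed positions summed and at least 10 reads per library, 4 of 135290 tiles were called (0.00296%). All 14 member-window tiles that could be tested in this way had an adjusted p of 1, and their groups overlapped. The widest differences among them were at the H19 start and upstream of Zdbf2. In the H19 tile at 142577501 the level was 60.0%, 10% and 15.0% in hemicastrated mice, against 12.5%, 0% and 0% in sham mice, on 10 to 20 reads per library. In the Zdbf2 tile at 63261001 it was 9.84%, 43.8% and 18.1% in hemicastrated mice, against 0%, 7.89% and 18.97% in sham mice. In each case the highest level was that of 1 hemicastrated mouse, and the unadjusted edgeR p-values were 0.122 for the H19 tile and 0.143 for the Zdbf2 tile.

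The starts of genes with maternally methylated control regions were low. Most of them lay above the Rasgrf1 start (0.876%) and the shorter Zdbf2 start (0.844%). Of 17 genes whose control regions are methylated in the egg, 13 had positions with enough reads within 1 kb of their start, or of a gene boundary where no start was listed, and their mean levels ran from 0.650% at Inpp5f to 13.9% at Snrpn, with a median of 9.93%. Their mean was 9.53% ± 0.825 in hemicastrated mice and 7.86% ± 1.21 in sham mice, and the groups overlapped. Peg3, Mest, Herc3 and Cdh15 had no position with enough reads in that window. The H19 control region was 81.2 points above this list within mice (63.1 to 89.8 points, higher in 6 of 6 mice, exact sign-flip p = 0.03125, adjusted p = 0.0365). The control region averaged 89.9% over the 6 mice, and the list 8.69%. This sets 1 CpG of a control region against windows at gene starts, so the class of the locus and the kind of region cannot be told apart in it. The genome-wide fit held 26 tiles within 1 kb of the list's gene boundaries, again from 13 genes, but with Herc3 and without Snrpn. Of these 26 tiles 0 were called and 3 had an unadjusted p under 0.05, with a median difference of 0.681 points against -0.0253 over all tiles. Peg13, a brain-expressed non-coding RNA gene, was the member of the list whose groups were farthest apart, with 16.8%, 21.99% and 14.3% in hemicastrated mice, against 4.74%, 1.95% and 1.65% in sham mice, although the smallest adjusted p of any tile of the list was 0.971.

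Meg3, the non-coding RNA gene of another paternally methylated domain, had 4 positions with enough reads in the stretch from 20 kb to 1 kb before its start. Their mean was 72.2% ± 2.47 in hemicastrated mice and 73.1% ± 2.95 in sham mice, within the spread between mice. Over all 6 mice, 3 of them averaged between 94.98% and 99.3%, and the one at chr12:109529842 averaged 0.9804%. Among tiles within 1 kb of gene boundaries, Meg3 had 2, at 8.69% and 10.1% in hemicastrated mice, against 19.1% and 19.6% in sham mice. Their unadjusted edgeR p-values were 0.0105 and 0.0367, and both adjusted p-values were 1. Igf2 and Ins2, the neighbours of H19, had no tile that could be tested, and the tile of Dlk1, an imprinted gene near Meg3, was at 1.23% in hemicastrated mice and 1.62% in sham mice.

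**Figure D4:**
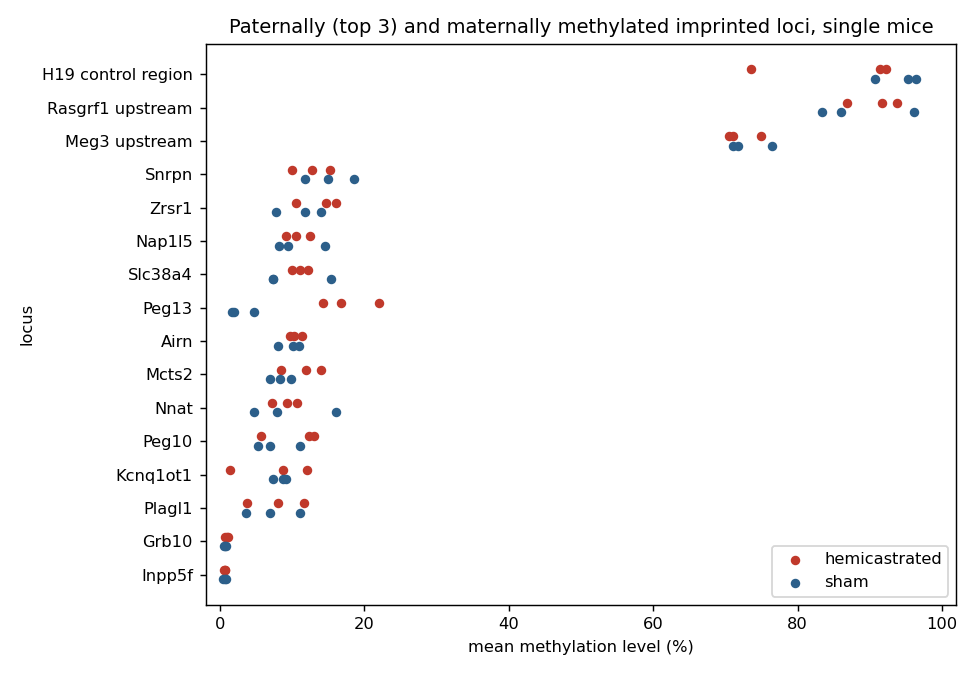
Mean methylation level in percent in each mouse, with hemicastrated mice in red above sham mice in blue, for regions upstream of genes at 3 paternally methylated loci (H19 control region, the Rasgrf1 members nearer the gene than its distal window, and Meg3 upstream) and the 13 covered genes of the maternally methylated list. The 3 upstream regions lay above 70% and the windows at the starts of the maternally methylated genes at or below 21.99%, and Peg13 was the gene with the widest distance between the groups.

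The levels next to the coverage minimum are given as a description, without a test. The members with the fewest reads had 7 in the thinnest library, and of these the 3 upstream Rasgrf1 positions averaged 87.3%, 91.4% and 92.7% and the Zdbf2 start position 0.794%. Just below the minimum, with 4 reads in the thinnest library, the 2 H19 positions averaged 74.0% and 86.9% and the 3 Rasgrf1 positions of the distal window 83.3% to 96.1%. The Rasgrf1 start positions at that coverage averaged 0% to 4.17%, and those of the low Zdbf2 upstream tile 14.4% to 21.7%.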

How the data were processed

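Per the labels' protocols, DNA of right testes was digested with MspI, size-selected, bisulfite-converted and amplified by PCR. The authors deposited for each library the methylated and unmethylated read counts per position, without normalization, and the percent methylation made from them. Per the submitters' processing notes, Bismark, TopHat2 2.0.11 and GRCm38 were used, with no role stated; of strand, trimming and duplicate removal nothing is stated. Of the positions with at least 5 reads in all 6 libraries in RefSeq promoter windows, 99.9849% fell on a CpG cytosine, so positions were read as CpG strands, a neighbouring pair being 1 CpG.

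Region levels were unweighted means of positions. Groups were set against each other by exact permutation tests over mice, two-sided, and regions within mice by exact sign-flip tests, adjusted by Benjamini-Hochberg. Tiles of 500 bp were tested with edgeR 4.0.16 (limma 3.58.1 as an alternative) in R 4.3.3 on summed counts, with a column per library and a methylation by group term, and adjusted over all tiles of the genome. The fit was tested on simulated data. Every region and tile of the windows may be named; single positions outside the text's regions were not. PCR copies, and calls at several positions of the same read, are not independent, so intervals and floors cover counting error only. Separate mice are stated by the labels. The members, lists and comparisons were chosen with earlier results of these data known. The Rasgrf1 and Zdbf2 upstream windows held no position with enough reads, so sums over all listed positions (at least 10 reads per tile and library) were added after the data were seen, and the planned mean of 3 control regions against the maternal list was made with H19 alone. Depth per library was 64437467 to 78540618 calls.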

Additional observations from a re-analysis of the deposited data

How the results depend on the processing

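The count of called tiles was 0 in the genome-wide fit. It was 4 with at least 1 position per tile, 5 with the quasi-binomial model, 4 with all listed positions summed and 0 to 1 when single mice were left out, and it was 0 with the replicate block, limma, a robust prior, other coverage minimums or shifted tiles. Same-numbered mice correlated at 0.0241, 0.0162 and 0.0142 in their deviations from group means, each mouse best with its own number but under 0.1, so the numbers were not taken as pairs; under the replicate block no region difference could go below an exact p of 0.25.

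All listed positions turned the Rasgrf1 upstream difference (hemicastrated minus sham) to -0.198 points and the H19 control region minus gene side to 9.84 points. Leaving out 1 mouse gave ranges that crossed 0 for the Rasgrf1 tile at 89885501 (-1.07 to 3.76 points), the H19 gene side (-3.75 to 1.74), the Rasgrf1 upstream positions (-0.261 to 6.11), the H19 start (-6.88 to 7.73), the distal Rasgrf1 window (-9.41 to 1.94), the longer Zdbf2 start (-1.95 to 5.98) and the H19 control region minus gene side (-2.12 to 2.63). The cause was not tested. The Rasgrf1 start difference ranged from 0.143 to 0.781 points, and was 1.04 with at least 20 reads. The Zdbf2 upstream window difference ranged from 11.3 to 19.9 points. As means of positions, the H19 control region minus start was 60.4 points, the group difference of the Zdbf2 upstream window 7.84, that of the distal Rasgrf1 window -10.3 and that of the H19 start 5.80. The H19 control region difference ranged from -11.7 to -2.26 points and that of the Zdbf2 start from 0.239 to 0.305 points. Within mice, the ranges were 87.4 to 90.1 points for Rasgrf1 upstream minus start, 29.8 to 37.8 for the H19 control region minus start, 79.1 to 83.6 for the distal Rasgrf1 window minus start, 31.7 to 37.6 for the Zdbf2 window minus start, 79.5 to 84.9 for the H19 control region minus the maternal list and 14.4 to 17.6 for the longer minus the shorter Zdbf2 start. These lost their call because 5 mice cannot give an exact p below 0.0625. A minimum of 20 reads left no value for the H19 control region. Limits include depth at the control regions, with 24 to 62 reads per library at H19, libraries that read different positions upstream of Rasgrf1 and Zdbf2, the mixture of cells in whole testis and 3 mice per group.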
